A study of Mus musculus with 4 samples.

Results

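The members described here are amino acid transporter genes, meaning all genes of the deposited table whose symbol begins with Slc1a, Slc3a, Slc6a, Slc7a, Slc36a, Slc38a or Slc43a. They were 51 of 17300 genes, and 30 of the 51 were expressed highly enough to be tested. RNA had been sequenced from dendritic cells, the antigen-presenting cells that prime T cells, after flow sorting from mouse spleen. The KO group held 2 libraries, called KO A and KO B because their columns carry other numbers than the sample titles, and the WT group held 2, called WT 1 and WT 2. The genotype is labelled only KO or WT, and the titles call the KO samples EKO. The labels give neither strain, age, sex nor treatment, nor the meaning of the prefix Allo on every column, nor whether the libraries of a group came from separate animals, so the p-values measure only the spread between these samples. The series title concerns Siglec-E, and Siglece stood at 8.92 and 8.96 in KO A and KO B, against 10.38 and 10.14 in WT 1 and WT 2 (log2 values). Of the markers looked for, all 16 shared by conventional dendritic cells, all 13 of the cDC1 subset and 10 of 11 of the cDC2 subset passed the expression limit used for the test, with Flt3 between 12.96 and 13.74 in all libraries. That limit was also passed by all 19 erythroid, 13 NK cell, 14 macrophage and 14 neutrophil markers in the data, so passing it does not tell cell types apart.

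Amino acids cross membranes only through carrier proteins. In the heteromeric carriers a glycoprotein heavy chain, 4F2hc from Slc3a2 or rBAT from Slc3a1, is bound to a light chain of the Slc7a family that does the transport. Other carriers work alone: the Slc1a proteins move glutamate or neutral amino acids, the Slc38a proteins mostly glutamine and other small neutral amino acids, the Slc36a proteins amino acids with protons, and the Slc43a proteins large neutral amino acids without sodium. Amino acids brought in this way are sensed by the kinase complex mTORC1, and antigen-presenting cells can change the supply of cysteine, arginine and tryptophan to T cells. The prefixes also collect genes that are no amino acid carriers, among them Slc7a6os (next to Slc7a6, and related to yeast Iwr1, which imports RNA polymerase II into the nucleus), Slc6a2 and Slc6a4 (monoamine carriers), Slc6a8 (creatine) and Slc43a3 (purine nucleobases).

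As background, ATF4, the transcription factor of the amino acid response, binds a composite C/EBP-ATF site in mammals. RefSeq promoters (GRCm38.p6, 250 bases before to 50 after a start site) were available for 37 of the 51 members and for 7 of the 8 that passed the test below, all but Slc7a5. The promoters of a cystine carrier light chain, of the common heavy chain and of a glutamine carrier that moved the other way are shown to set the sequences of these 3 genes side by side, with capitals marking matches on either strand to any of 5 motifs (TGATGNAA for the C/EBP-ATF composite, TGANTCA for AP-1, TGACNNNGC for the antioxidant response element, CACGTG for the E-box and AGATAA for GATA factors). The Slc7a11 promoter is chr3:50443564-50443863, the Slc3a2 promoter chr19:8713848-8714147 and the Slc38a2 promoter chr15:96699679-96699978, all on the minus strand.
Slc7a11: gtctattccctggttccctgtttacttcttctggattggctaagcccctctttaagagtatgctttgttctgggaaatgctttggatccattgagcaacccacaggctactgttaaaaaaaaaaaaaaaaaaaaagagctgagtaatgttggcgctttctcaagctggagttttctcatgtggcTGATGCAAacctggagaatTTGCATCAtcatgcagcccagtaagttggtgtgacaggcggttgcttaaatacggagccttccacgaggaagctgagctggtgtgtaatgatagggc
Slc3a2: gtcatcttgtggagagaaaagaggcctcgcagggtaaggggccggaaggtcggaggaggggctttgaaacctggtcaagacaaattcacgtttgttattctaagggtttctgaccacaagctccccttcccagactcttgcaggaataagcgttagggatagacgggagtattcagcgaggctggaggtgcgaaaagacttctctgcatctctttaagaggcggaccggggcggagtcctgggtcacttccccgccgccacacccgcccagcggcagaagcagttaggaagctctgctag
Slc38a2: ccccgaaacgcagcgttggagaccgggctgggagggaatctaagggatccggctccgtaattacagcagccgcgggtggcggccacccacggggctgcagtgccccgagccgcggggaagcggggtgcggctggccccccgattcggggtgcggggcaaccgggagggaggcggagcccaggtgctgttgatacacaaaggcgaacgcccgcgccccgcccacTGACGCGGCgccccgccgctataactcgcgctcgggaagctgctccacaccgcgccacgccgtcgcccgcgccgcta

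The capitals in Slc7a11 are 2 composite matches in opposite orientation. Among 32851 promoters of the same length 3.97% held at least 1 composite match, against 5 of 55 member promoters, and 0.0700% held 2 or more, against 2 of 55 (1 of Slc7a11 and 1 of Slc7a7). The 55 windows come from 37 members and some overlap, so they are not independent. Among the 5 are overlapping Slc7a7 windows that share a match. The Slc3a2 window held none of the 5 motifs, and that of Slc38a2 held 1 match to the antioxidant letters, which 12.4% of all promoters and 9 of 55 member promoters held. AP-1 letters were in 7.81% of all and 8 of 55 member promoters, E-box letters in 7.15% and 5 of 55, and GATA letters in 11.2% and 3 of 55. A match describes letters in the window and is not a measured binding site. Sequence outside the windows was not searched, so a window without a match does not show that a gene lacks such a site.

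Levels spanned the whole range from barely detected to abundant. Values are on the authors' variance-stabilised log2 scale, on which every library has the same lowest value of 8.04, and low values are compressed. A gene was tested when its mean lay at least 1 log2 unit above that value, at 9.04 or more, which corresponds to 131 back-transformed counts. The 21 members below included Slc1a1, Slc1a2, Slc1a4, Slc3a1, Slc6a2, Slc6a4, Slc6a5, Slc6a8, Slc6a13, Slc6a15, Slc6a18, Slc6a20a, Slc6a21, Slc7a4, Slc7a10, Slc7a13, Slc7a15, Slc36a2, Slc36a3 and Slc38a11. Their counts ran from 2.36 to 204 per library, and 19 of them were under the limit in all 4 libraries, the exceptions being Slc6a8 and Slc6a20a, which were above it in KO B. Just outside the limit stood Slc6a20a with a mean of 9.02 and just inside it Slc6a12, Slc7a14 and Slc1a3 with 9.06 each. Slc6a20a and Slc6a20b are neighbouring genes of the same family, and whether the counting split reads between them was not tested.

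To compare genes, counts were divided by the length of the longest coding transcript in GENCODE M21. On this scale the Slc38a family held 49.8% and 49.2% of the summed member level in KO A and KO B, against 55.5% and 53.4% in WT 1 and WT 2. The highest member was Slc38a6, SNAT6, with a mean of 2789 counts per kilobase, followed by Slc38a2 with 1558, Slc38a1 with 1276, the taurine carrier Slc6a6 with 1257 and Slc3a2 with 895. The Slc3a family, in practice Slc3a2, held 8.47% and 8.67% of the summed level in KO, against 4.34% and 5.42% in WT. The sum over all members was 13325 and 13882 counts per kilobase in KO A and KO B, and 13038 and 13518 in WT 1 and WT 2, so the KO range overlapped the WT range.

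**Figure D1:**
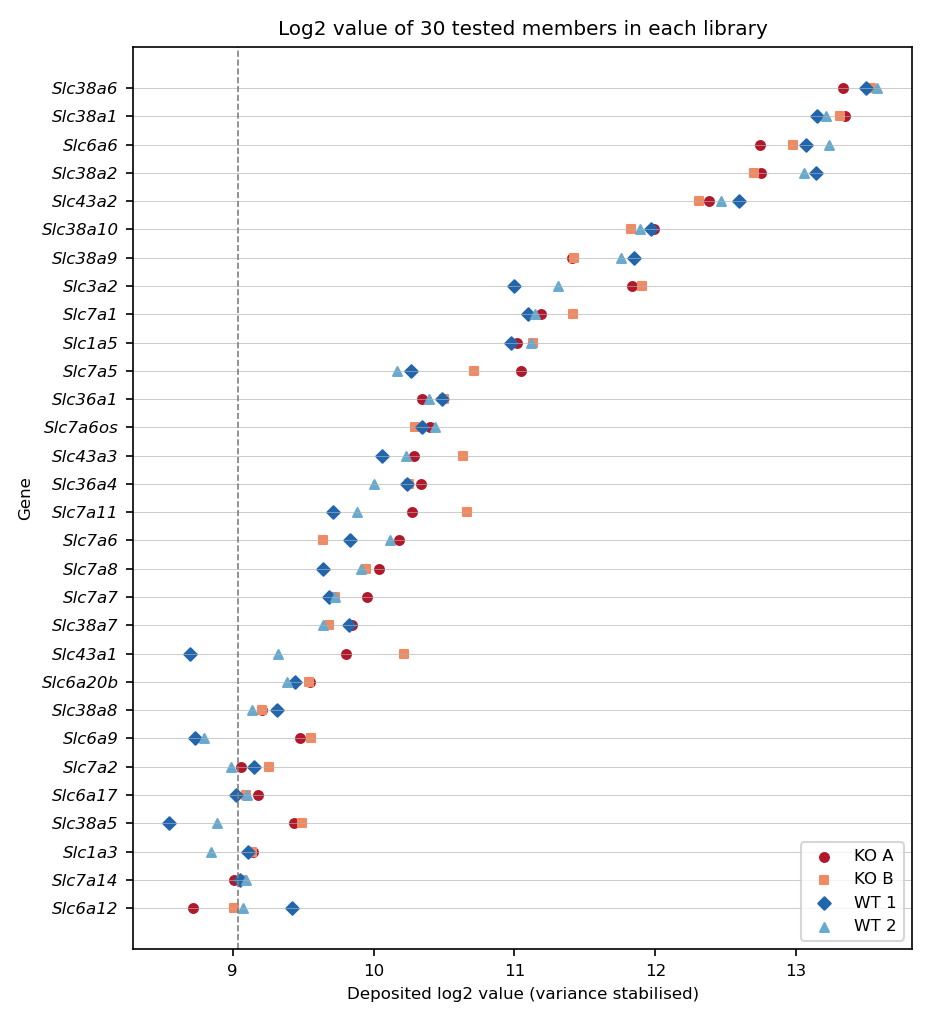
Deposited log2 value of the 30 tested members (rows, sorted by mean) in each library, with KO A as circles, KO B as squares, WT 1 as diamonds and WT 2 as triangles, and the limit for testing at 9.04 as a dashed line. Slc3a2, Slc7a5, Slc7a11, Slc43a1, Slc6a9 and Slc38a5 have both KO libraries to the right of both WT libraries.

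Of the 30 tested members, 6 rose, 2 fell and 22 missed the threshold in KO against WT (limma, two-sided, Benjamini-Hochberg adjusted p below 0.05 over 11864 genes). The background was 6.93% of all tested genes called, 4.69% higher and 2.23% lower. The genes that rose were Slc3a2, Slc7a5, Slc7a11, Slc6a9, Slc38a5 and Slc43a1, and those that fell were Slc38a2 and Slc38a9. Slc6a9 and Slc38a5 lay below the limit in both WT libraries and entered the test only through KO, as did Slc43a1, whose WT mean of 9.01 was also under it. Of the members not called, Slc1a3 also entered through KO, with a WT mean of 8.98. Slc6a12 entered only through WT, with a KO mean of 8.87. Each of these genes had to differ in that direction, so their tests, and the counts of calls and of non-overlap that include them, are a description. KO and WT libraries did not overlap in 18 of the 30, against 56.2% of all tested genes, with KO above WT in 13 (28.1% of all tested genes) and below it in 5 (28.2%). The median difference was 0.083 in the 30 members and -0.0017 over all tested genes. With the filter raised to 2 log2 units, which left 16 members, it was 0.0036 in members and 0.0066 over all tested genes. An unadjusted p under 0.05 was found for 10 of the 30 members, against 2928 of all 11864 tested genes (limma). Leaving out KO A or KO B, which leaves 1 KO library, ended every one of the 8 calls. The sign of all 8 was the same in every alternative run.

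Both parts of the system L carrier rose. Slc3a2 (ENSMUSG00000010095), the heavy chain, was at 11.84 and 11.90 in KO A and KO B, against 11.00 and 11.31 in WT 1 and WT 2 (log2 values). Both KO libraries stood above both WT libraries, and WT 1 was lowest. The difference was 0.72 (SE 0.118, adjusted p = 0.0264, limma), and mean counts were 1.80-fold higher in KO. Slc7a5 (ENSMUSG00000040010), the light chain LAT1 that imports leucine, tryptophan and other large neutral amino acids, was at 11.05 and 10.72 in KO, against 10.26 and 10.17 in WT. It was highest in KO A, and the groups did not overlap. It rose by 0.67 (SE 0.128, adjusted p = 0.0366, limma), and its counts were 1.96-fold higher.

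The cystine carrier rose with them. Slc7a11 (ENSMUSG00000027737), the light chain xCT that exchanges glutamate for cystine and feeds glutathione synthesis, was at 10.28 and 10.67 in KO A and KO B, against 9.71 and 9.89 in WT 1 and WT 2. KO B was the highest library and WT 1 the lowest. The difference was 0.67 (SE 0.146, adjusted p = 0.0476, limma), with 2.15-fold more counts in KO. Its call ended without WT 1 (0.58, adjusted p = 0.0835) and with quantile normalization (adjusted p = 0.0619).

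The other light chains that bind 4F2hc did not pass. Slc7a8 (LAT2, neutral amino acids) differed by 0.22 (adjusted p = 0.304), Slc7a7 (y+LAT1, cationic amino acids) by 0.13 (adjusted p = 0.490) and Slc7a6 (y+LAT2) by -0.063 (adjusted p = 0.877), all by limma. Slc7a6 varied most within KO, at 10.18 in KO A but 9.64 in KO B, with 9.83 and 10.12 in WT 1 and WT 2. Per kilobase, Slc7a5 made up 41.4% and 39.0% of the 6 light chains summed (Slc7a5, Slc7a6, Slc7a7, Slc7a8, Slc7a10 and Slc7a11) in KO A and KO B, against 33.5% and 26.3% in WT 1 and WT 2. The summed light chains were 0.995 and 0.739 times the level of Slc3a2 in KO, against 1.17 and 1.02 times in WT. These are mRNA levels and do not give the number of assembled carriers.

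**Figure D2:**
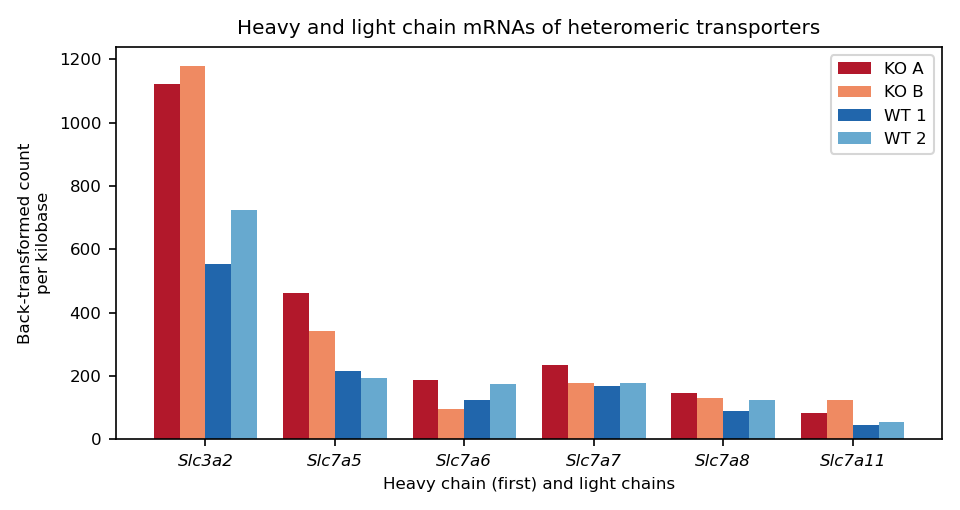
Back-transformed counts per kilobase of the heavy chain Slc3a2 and of 5 light chains (bars, 1 per library, in the order KO A, KO B, WT 1, WT 2). Slc3a2 reached 1121 and 1180 in KO, against 552 and 726 in WT, and Slc7a5 and Slc7a11 were also higher in both KO libraries, while Slc7a6 and Slc7a7 overlapped.

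Carriers that work without a heavy chain rose in 3 cases, all with a WT mean under the limit for testing. Slc43a1 (ENSMUSG00000027075), LAT3, which carries leucine and other large neutral amino acids, was at 9.81 and 10.21 in KO A and KO B, against 8.70 and 9.32 in WT 1 and WT 2. The groups did not overlap, but WT 1 lay far under WT 2, with 56.4 against 222 counts. It rose by 1 log2 unit (SE 0.222, adjusted p = 0.0496, just under the threshold, limma), 4.20-fold in counts, and the call was kept in 3 of 9 alternatives, with adjusted p between 0.00137 and 0.201.

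Slc6a9 (ENSMUSG00000028542), the glycine carrier GlyT1, which supplies glycine for haem synthesis in red cell precursors, was at 9.48 and 9.55 in KO A and KO B, against 8.73 and 8.80 in WT 1 and WT 2. Libraries within each group lay close together. It rose by 0.75 (SE 0.0834, adjusted p = 0.0147, limma) and 4.39-fold in counts. Slc38a5 (ENSMUSG00000031170), SNAT5, a glutamine, serine and glycine carrier encoded on the X chromosome, was at 9.43 and 9.49 in KO, against 8.54 and 8.89 in WT. WT 1 was again lowest, with 33.0 counts against 94.9 in WT 2. It rose by 0.75 (SE 0.125, adjusted p = 0.0271, limma) and 4.36-fold in counts. On the log2(count + 1) scale its adjusted p was 0.0506, which ended the call.

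Red cell markers were higher in the same libraries as these 3 genes. Among 19 erythroid markers 10 rose (4.69% of all tested genes), none fell (2.23%), 9 missed the threshold and none was at 0 throughout. Their summed counts were 65141 and 91561 in KO A and KO B, against 10626 and 31792 in WT 1 and WT 2. The part of red cell RNA in the differences of Slc43a1, Slc6a9 and Slc38a5 was not tested, and in a bulk sample more cells of a type cannot be told apart from more RNA per cell.

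Immediate early genes and markers of several other cell types also stood higher in KO. For comparison with the counts below, 4.69% of all tested genes rose and 2.23% fell. Of 21 immediate early genes 17 rose, with summed counts of 181375 and 207329 in KO A and KO B, against 37906 and 78114 in WT 1 and WT 2. NK markers summed to 21555 and 26758 in KO, against 11290 and 11893 in WT (10 of 13 rose). Macrophage markers summed to 29778 and 35763 in KO, against 18969 and 17676 in WT (6 of 14 rose), and monocyte markers to 130871 and 128017 in KO, against 80158 and 75452 in WT (6 of 13 rose). Of the tested mast cell and basophil markers 4 of 7 rose and 1 fell, and 2 of 4 T cell, 1 of 10 B cell and 1 of 6 plasma cell markers rose. Neutrophil markers (3 of 14 rose) summed to 260892 and 245305 in KO A and KO B, against 224443 and 87013 in WT 1 and WT 2. Of the 6 members that rose, 5, all but Slc7a5, had the library order KO B, KO A, WT 2, WT 1 from high to low. The erythroid, NK and immediate early sums share it, as do the sums of the amino acid starvation and catabolism lists described below. That order held for 308 of the 557 genes called higher (55.3%) and for 9.68% of all tested genes. The part of these cells and of the immediate early response in the Slc3a2, Slc7a5 and Slc7a11 differences was not tested.

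**Figure D3:**
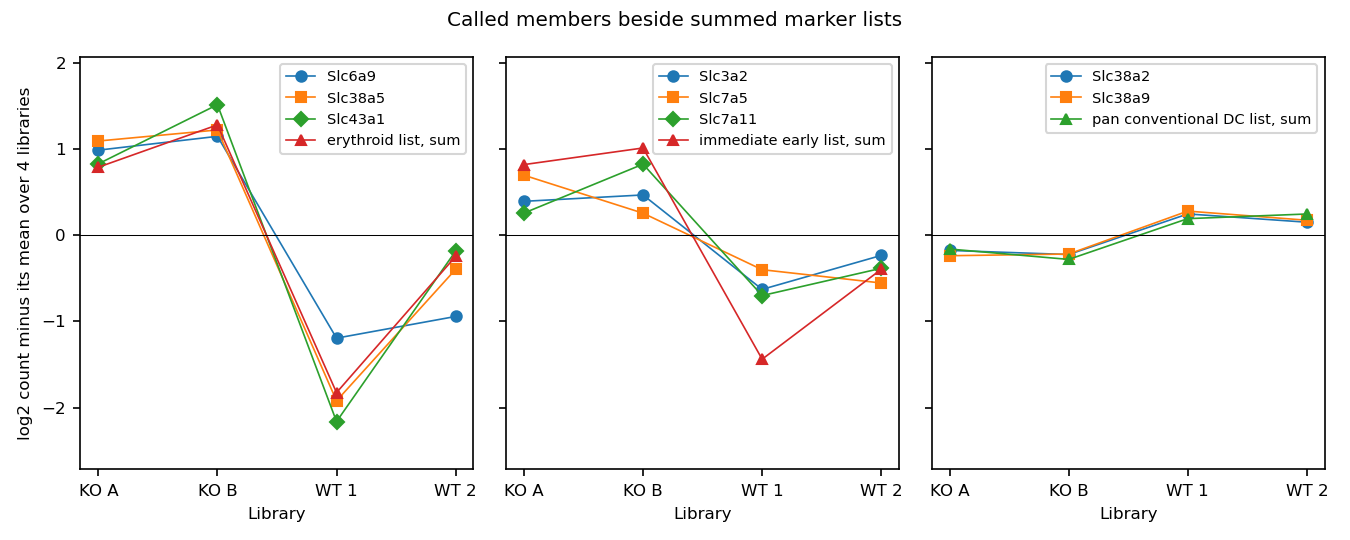
Log2 of the back-transformed count of each called member, and of the summed counts of a marker list, minus its mean over the 4 libraries (x axis: library, KO left of WT). The left panel adds the erythroid sum, the middle one the immediate early sum and the right one the pan conventional DC sum. Every line has both KO libraries on one side of both WT libraries, as have 28.1% (above) and 28.2% (below) of all tested genes, while Slc7a5 runs opposite to the immediate early sum within each group, and Slc38a2 and Slc38a9 opposite to the DC sum within WT.

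Both members that fell belong to the Slc38a family. Slc38a2 (ENSMUSG00000022462), SNAT2, a sodium-coupled carrier of glutamine and alanine, was at 12.75 and 12.70 in KO A and KO B, against 13.14 and 13.05 in WT 1 and WT 2. The groups did not overlap, and it fell by 0.37 (SE 0.0802, adjusted p = 0.0465, limma), with 1.32-fold more counts in WT. Slc38a9 (ENSMUSG00000047789), the lysosomal arginine sensor that signals to mTORC1 through the Rag GTPases, was at 11.41 and 11.43 in KO, against 11.85 and 11.76 in WT. It fell by 0.38 (SE 0.0822, adjusted p = 0.0462, limma), with 1.37-fold more counts in WT. Each call was kept in 2 of 10 alternatives, with adjusted p up to 0.189 for Slc38a2 and 0.180 for Slc38a9. Shared conventional dendritic cell markers were lower in the same libraries: of 16, 10 fell and 0 rose (2.23% and 4.69% of all tested genes). These markers had summed counts of 484759 and 445959 in KO A and KO B, against 619065 and 642630 in WT 1 and WT 2. Their part in the Slc38a2 and Slc38a9 differences was not tested.

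**Figure D4:**
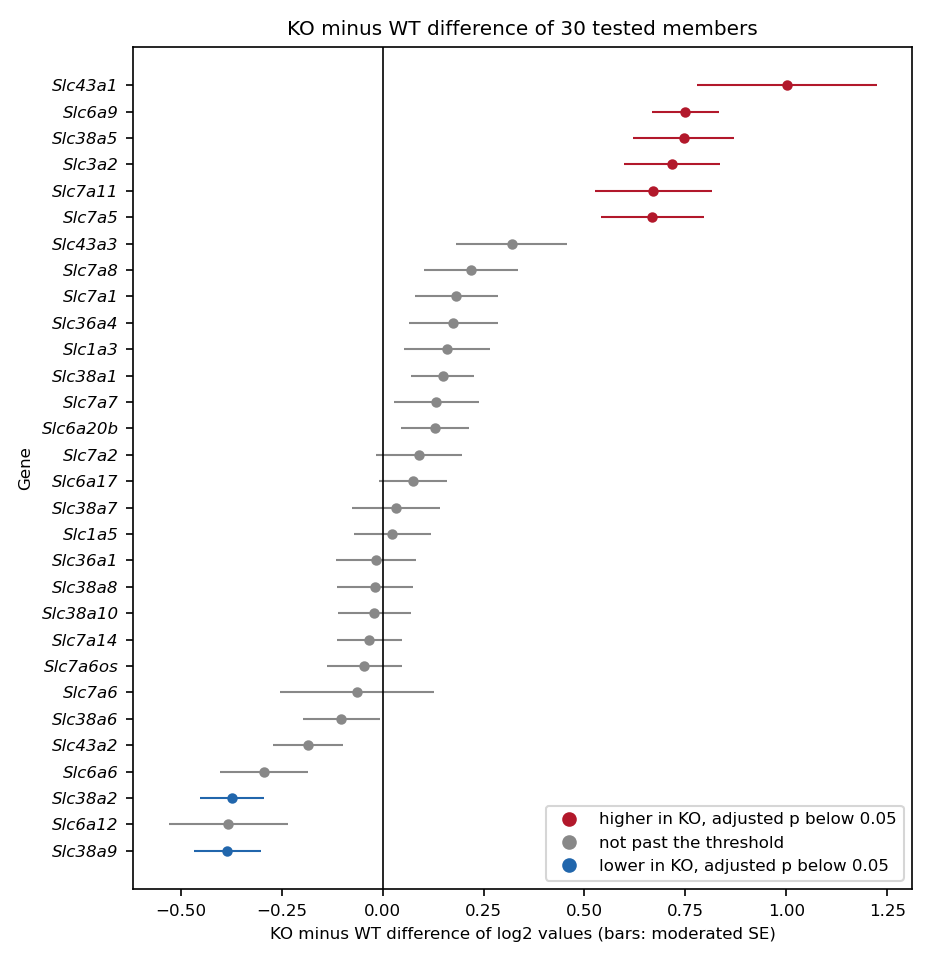
KO minus WT difference of log2 values for the 30 tested members, sorted, with the moderated standard error as bars (red, higher past the threshold; blue, lower past it; grey, not past it). The 6 members that rose lie between 0.67 and 1 log2 unit, apart from the highest grey member Slc43a3 at 0.32, while on the lower side grey Slc6a12 at -0.38 lies beside Slc38a9 and Slc38a2.

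The carriers Slc38a1, Slc38a6, Slc38a10, Slc1a5 and Slc6a6, all among the 12 members of highest level per kilobase, did not pass. Slc38a1 (SNAT1) was at 13.35 and 13.31 in KO A and KO B, against 13.15 and 13.21 in WT 1 and WT 2, a difference of 0.15 (adjusted p = 0.296). Its neighbour on chromosome 15, Slc38a2, had the opposite sign. Slc38a6 differed by -0.10 (adjusted p = 0.559), Slc38a10 by -0.020 (adjusted p = 0.924) and Slc1a5 (ASCT2, the glutamine exchanger) by 0.024 (adjusted p = 0.908), all by limma. Slc6a6 was at 12.74 and 12.98 in KO, against 13.07 and 13.23 in WT, with no overlap and a difference of -0.29 (adjusted p = 0.162).

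Among the rest, Slc6a12, a betaine and GABA carrier, was at 8.72 and 9.01 in KO A and KO B, against 9.42 and 9.07 in WT 1 and WT 2. Both KO libraries lay under the limit for testing, so Slc6a12 entered only through WT and had to be lower in KO. Its difference of -0.38 did not pass (adjusted p = 0.176, limma). It passed without WT 2 (adjusted p = 0.0483), where WT 1, the highest library, is the only WT library left. Slc43a3 was at 10.29 and 10.64 in KO, against 10.06 and 10.23 in WT (difference 0.32, adjusted p = 0.218), and Slc43a2 (LAT4) differed by -0.18 (adjusted p = 0.244). The arginine carrier Slc7a1 (CAT1) differed by 0.18 (adjusted p = 0.332) and the lysosomal proton-coupled carrier Slc36a1 by -0.017 (adjusted p = 0.941). The 22 members that did not pass lay between -0.38 and 0.32. Among the 21 untested members differences ran from -0.25 to 0.27.

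Of the members on the X chromosome, Slc38a5 and Slc6a8 are given beside KO A, in which Y-linked RNA was low (summed counts of 1019 and 9539 in KO A and KO B, against 9562 and 9994 in WT 1 and WT 2). Slc38a5 had 266 and 291 counts in KO A and KO B. The untested Slc6a8 had counts of 69.6 (KO A) and 139.9 (KO B), against 67.2 (WT 1) and 52.0 (WT 2). The part of this difference between the KO libraries in any result was not tested.

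Genes that respond to or use amino acids were described from 4 lists. For comparison, 4.69% of all tested genes were called higher, 2.23% lower and 6.93% in either direction. In the list of the amino acid starvation response, 7 of 23 genes rose and 2 fell, while 14 missed the threshold, with a median of 0.065. Cebpb, which partners ATF4 and is also in the monocyte list, was at 12.68 and 12.66 in KO A and KO B, against 11.31 and 11.62 in WT 1 and WT 2, and rose by 1.21 (SE 0.117, adjusted p = 0.0147, limma). Ppp1r15a, which restarts translation by removing phosphate from eIF2, rose by 1.86 (adjusted p = 0.0279). Eif2ak4, the kinase GCN2 that senses uncharged tRNA, fell by 0.41 (adjusted p = 0.0438) and the mitochondrial folate enzyme Mthfd2 fell by 0.44 (adjusted p = 0.0439). Outside the rule for naming genes and picked with values known, Atf4 rose by 0.79 (adjusted p = 0.0363, limma). Picked in the same way, Asns, asparagine synthetase, rose by 0.58 (adjusted p = 0.0423, limma), while Ddit3 differed by 0.37 (adjusted p = 0.0560, limma). The list also holds Atf3, an immediate early gene.

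The mTORC1 sensing list, which does not hold Slc38a9, had 1 of 40 tested genes past the threshold, against 6.93% of all tested genes. Castor2, a homologue of the cytosolic arginine sensor Castor1, was at 10.11 and 10.07 in KO A and KO B, against 10.56 and 10.58 in WT 1 and WT 2, and fell by 0.48 (SE 0.0861, adjusted p = 0.0315, limma). None rose (5 of the 40 had an unadjusted p under 0.05, against 2928 of 11864 tested genes, limma), and the median was -0.023. Its call ended without any 1 of the 4 libraries.

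In the list of amino acid catabolism and synthesis 4 of 30 genes rose and 3 fell (4.69% and 2.23% of all tested genes). The other 23 missed the threshold, and the median of the list was 0.0026. Gclm, the modifier subunit of the enzyme that starts glutathione synthesis from the cysteine that cystine import supplies, was at 10.55 and 10.81 in KO A and KO B, against 9.75 and 9.96 in WT 1 and WT 2, and rose by 0.83 (SE 0.126, adjusted p = 0.0233, limma). Hdc, which makes histamine and is also in the mast cell and basophil list, rose by 1.48 (adjusted p = 0.0147). Kynu, of the kynurenine pathway of tryptophan breakdown, fell by 0.56 (adjusted p = 0.0224). The oxidase Il4i1, which breaks down aromatic amino acids, fell by 0.80 (adjusted p = 0.0199).

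Amino acid and peptide carriers of other families gave no call. Of 17 tested, 0 rose and 0 fell by limma, against 6.93% of all tested genes called. Of these carriers 6 had an unadjusted p under 0.05, against 2928 of 11864 tested genes, and 1 was lower with the filter at 2 log2 units. Their median was 0.025. Their differences ran from -0.40 to 0.72. The peptide carrier Slc15a2, at the upper end, differed by 0.72 (adjusted p = 0.115, limma). The lysosomal cystine exporter Ctns, which was not the lowest, differed by -0.38 (adjusted p = 0.0564, limma). Both were chosen after their values were seen.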

How the data were processed

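RNA was measured by stranded total RNA sequencing of small inputs, per the labels' protocols. The authors deposited 1 table with log2 values of 17300 genes, scaled across libraries beforehand. Salmon 1.10.1, DESeq2 and GRCm39 are named in the submitters' processing notes without role or order; no annotation or gene filter is stated there. Low values are compressed and all libraries share the lowest value, as in a variance-stabilising transform, so it was undone from that value. Between 57.8% and 68.0% of the lowest back-transformed counts then lay within 0.1 of a whole multiple of 1 step per library. The step was chosen in each library to make this share as large as possible, so the share is no independent check of the transform. Sums were 30952251 (KO A), 30274060 (KO B), 29002408 (WT 1) and 29377044 (WT 2), which are not depths, since scaling came first. Depth per library is unknown.

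Symbols came from GENCODE M21 names (17289 of 17300 matched), and chromosomes and neighbours from RefSeq GRCm38.p6. The test of KO against WT was limma 3.58.1 (R 4.3.3) with an intensity trend, on genes whose mean was 1 log2 unit or more above that lowest value. The procedure was tested on simulated data. All members were counted, and 1 untested member is not reported here by name. Those named with values had passed the threshold, were among the 12 highest, had non-overlapping groups with a difference of at least 0.3, or pair with Slc3a2; further members give the range. At most 4 genes were named per pathway list. The members, lists and motifs were chosen with earlier results of these data known. Alternatives were 2 other filters, quantile normalization, log2 of the count plus 1 or 8, no trend and each library left out.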

Additional observations from a re-analysis of the deposited data

How the results depend on the processing

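No paired analysis was possible because the KO columns carry other numbers than the KO sample titles. With each library left out in turn, the count of members past the threshold ran from 0 to 7 (0 to 6 higher, 0 to 1 lower) against 8, and that of all genes from 0 to 820 (0 to 620 higher, 0 to 200 lower) against 822. The counts were 0 members without KO A or KO B, 5 without WT 1 and 7 without WT 2; for all genes they were 0 without KO A and 3 without KO B. The lower member among these runs was Slc6a12, without WT 2, which did not pass in the main run. Slc38a2 and Slc38a9 passed in no run with a library left out. Their differences there ran from -0.42 to -0.33 and from -0.43 to -0.34. With 1 library left in an arm, that library is assumed to vary like the other group. Starvation response genes ran from 0 to 6 (0 to 5 higher, 0 to 1 lower), catabolism and synthesis genes from 0 to 7 (0 to 4 higher, 0 to 3 lower) and mTORC1 sensing genes from 0 to 1 (0 to 1 higher, 0 lower).

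Members past the threshold numbered 5 with the filter at 2 log2 units (3 higher, with 16 members tested), 4 with log2 of the count plus 1, 5 with log2 of the count plus 8 and 5 with no intensity trend. The lower members numbered 0 with no filter, with either log2 count scale and with no trend. Slc3a2, Slc7a5 and Slc6a9 passed in every alternative that kept all libraries and tested them, and Slc6a9 was not tested at 2 log2 units. Quantile normalization left 366 genes higher in place of 557, with 282 lower in place of 265 and a median of -0.03 over all genes. It gave 5 starvation response genes (3 higher) and 2 higher catabolism genes, while both count scales gave 4 higher starvation response genes. Other carriers gave 1 call, lower, at the filter of 2 log2 units. The members' median was 0.0036 with the filter at 2 log2 units and 0.033 with no filter, against 0.083 in the main run. It was 0.19 and 0.18 with the count plus 1 and plus 8. The cause of these changes was not tested, and some runs also held fewer genes or libraries.

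Some differences that never passed changed sign: Slc1a5 was -0.011 with quantile normalization, and with libraries left out it ran from -0.048 to 0.10, Slc36a1 from -0.10 to 0.062, Slc38a10 from -0.10 to 0.061 and Slc7a6 from -0.33 to 0.21. With 2 libraries a group and no depth given, the 22 members that did not pass are not shown to be equal in KO and WT.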
